A study of Mus musculus with 12 samples.

Results

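A set of 9 genes of the potassium currents that repolarise the mouse ventricle were examined in adult cardiomyocytes with and without desmin, the main intermediate filament protein of heart muscle. They were taken by symbol from the count tables of all libraries: Kcnj2, Kcnj12 and Kcnj14, Kcnj11, Kcnd2 and Kcnip2, Kcnh2, Kcnq1, and Kcna5, which are 9 of 21493 listed genes. All 9 passed the filter on low counts that left 13158 genes for testing. Poly-A RNA had been sequenced from cardiomyocytes freshly isolated by enzymatic digestion from hearts of 3-month-old mice. The mice had both copies of desmin (Des+/+) or none (Des-/-), and had swum as an exercise stress (swim) or had not (non-swim), giving 4 groups of 3 libraries. Both genotypes are described in the study's methods as lines that also carry an αMHC-GFP transgene, driven by a cardiomyocyte promoter, on a 129SV background. The Des-/- allele is a germline null, so desmin was missing from every cell type, and each library pooled cells of several mice, taken regardless of sex, so a replicate is a pool.

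As background, potassium channels carry the outward current that ends the cardiac action potential and holds the resting potential. A channel is built from pore subunits, which conduct, and accessory subunits, which set how many channels reach the membrane and how they open. Mouse ventricle repolarises fast, with large transient outward and ultrarapid currents, whereas the delayed rectifiers that dominate in large mammals, the channels of KCNH2 and KCNQ1, contribute little in the adult mouse. Inward rectifiers hold the resting potential, and the ATP-sensitive channel ties potassium conductance to the metabolic state of the cell.

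The sequences below stand for the transient outward pair, which had the lower level in Des-/- libraries without swimming, and for Kcna5, which did not pass that test. Each is the 250 bases before the RefSeq start on GRCm38.p6, and capitals mark the GC box (GGGCGG, read on both strands) and the motif CACCC (also on both strands), letters that Sp and Krüppel-like factors are known to bind.
Kcnip2 (chr19:45816064-45816313, minus strand): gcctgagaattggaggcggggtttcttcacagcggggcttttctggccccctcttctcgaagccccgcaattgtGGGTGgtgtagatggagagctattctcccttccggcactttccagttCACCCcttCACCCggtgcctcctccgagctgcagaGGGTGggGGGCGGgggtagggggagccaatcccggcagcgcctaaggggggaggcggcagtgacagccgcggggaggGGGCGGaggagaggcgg
Kcnd2 (chr6:21215096-21215345, plus strand): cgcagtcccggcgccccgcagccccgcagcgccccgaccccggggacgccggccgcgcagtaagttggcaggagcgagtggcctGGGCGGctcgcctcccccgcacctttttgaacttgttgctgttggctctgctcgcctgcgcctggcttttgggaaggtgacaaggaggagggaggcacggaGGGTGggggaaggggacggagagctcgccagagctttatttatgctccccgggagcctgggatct
Kcna5 (chr6:126535556-126535805, minus strand): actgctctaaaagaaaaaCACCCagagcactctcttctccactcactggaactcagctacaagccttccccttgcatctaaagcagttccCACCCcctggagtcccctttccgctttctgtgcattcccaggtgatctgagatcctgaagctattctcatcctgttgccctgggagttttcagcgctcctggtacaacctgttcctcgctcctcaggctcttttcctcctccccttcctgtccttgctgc
The window of Kcnip2 held 2 GC boxes and 4 CACCC motifs, that of Kcnd2 held 1 of each, and that of Kcna5 held 0 GC boxes and 2 CACCC motifs. Promoters were available for 6 of the 9 genes, and 4 of these 6 held a GC box, against 32.9% of 27025 promoter windows of the same length. All 6 held CACCC, which 51.3% of the windows held. The palindromic E-box CACGTG was found only in the window of Kcnj2, 1 of 6, against 6.05% of windows, and TATAAA (both strands) in 0 of 6, against 13% of windows. These matches describe letters and not occupied sites.

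Some facts of the libraries bear on all that follows. Reads assigned to genes ranged from 4320819 to 12072443. Des itself was at 973 to 3647 CPM (reads of a gene per 1000000 reads of the scaled library total) in the 6 Des+/+ libraries and at 50.3 to 100.5 in the 6 Des-/- libraries, as the labels say. The libraries expressed cardiomyocyte markers throughout, but not evenly. The summed level of 14 cardiomyocyte markers, such as Myh6 and Tnnt2, was 72830 to 111600 CPM in Des+/+ non-swim, 35650 to 58380 in Des+/+ swim, 7473 to 34120 in Des-/- non-swim and 18330 to 30430 in Des-/- swim libraries. None of the 14 was at 0. All 14 were called lower in Des-/- libraries without swimming (median log2 change -2.05) and 1 of 14 after swimming (median -0.64). The 12 fibroblast markers summed to 2799 to 4287 CPM in the Des+/+ libraries, to 9261 to 44030 in Des-/- non-swim and to 4573 to 15330 in Des-/- swim libraries, with 12 of 12 called higher without and 2 of 12 after swimming. Of 10 macrophage markers, 9 were called higher without swimming and 1 after, and of 9 genes that respond to cell isolation, 7 and 6 were. Replicate 3 of both Des-/- groups held the highest fibroblast and macrophage sums and the lowest cardiomyocyte sum of its group. In such bulk RNA, fewer cardiomyocytes and less of a transcript in each cardiomyocyte cannot be told apart.

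The first question was whether the channel genes differ between genotypes in hearts that were not stressed. Without swimming, 8 of the 9 genes were called lower in Des-/- libraries and 0 higher (edgeR's quasi-likelihood test, adjusted p under 0.05 over all 13158 genes). Of all genes tested, 18.0% were called lower and 14.0% higher (2370 and 1840 genes, or 2034 and 2492 with upper-quartile scaling, which called the same number of the 9). The median log2 change of the 9 was -2.09, beside 0.04 over all genes and -2.05 for the cardiomyocyte markers. Every Des-/- library lay below every Des+/+ library for 7 of the 9, which held for 24.9% of all genes tested. When libraries were instead scaled to the 14 cardiomyocyte markers, 0 of the 8 were called lower, 5 of them had changes above 0, and Kcna5 was called higher. That scaling moved the median of all genes to 2.51, and of all genes 0.190% were called lower and 91.7% higher, so a call there is relative to the marker list and not to other genes. All 9 members lay below that median.

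The inward rectifiers come first. Kcnj2 (ENSMUSG00000041695, GRCm38 chromosome 11, 111066164 to 111076821, plus strand, 2 merged exons) encodes the main pore subunit of the current that holds the resting potential of ventricular cells. Its level was 78.5, 69.4 and 46.1 CPM in the Des+/+ non-swim libraries, 39.6, 40.9 and 30.7 in Des+/+ swim, 18.3, 25.8 and 11.5 in Des-/- non-swim, and 21.6, 23.4 and 6.16 in Des-/- swim. The Des+/+ libraries were all above the Des-/- libraries, with or without swimming. Without swimming the log2 change was -1.81 (SE 0.42, edgeR adjusted p 0.00814), a mean at 28.6% of that in Des+/+, whereas scaled to the cardiomyocyte markers it was 0.42 (adjusted p 0.423).

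Kcnj12 (ENSMUSG00000042529, chromosome 11, 61022564 to 61071131, plus strand) encodes a close relative that can join the same tetramers. Within the Des+/+ groups, though not within the Des-/- groups, it had the tightest replicates of the set. Levels were 16.6, 16.8 and 16.1 CPM in Des+/+ non-swim and 9.68, 9.20 and 10.2 in Des+/+ swim libraries. In the Des-/- libraries it was at 2.98, 9.06 and 1.92 without swimming and at 5.12, 4.81 and 3.08 after it. Neither swimming condition had overlap between genotypes, although replicate 2 of Des-/- non-swim, at 9.06, came close to the Des+/+ swim range. The change without swimming was -1.84 (SE 0.45, edgeR adjusted p 0.0108), or 0.15 when scaled to the cardiomyocyte markers. Without that library it was -2.75 (edgeR adjusted p 3.46e-04), and without replicate 3 of Des-/- non-swim it was -1.46 (adjusted p 0.0201).

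Kcnj14 (ENSMUSG00000058743, chromosome 7, 45816460 to 45824782, minus strand), a further member of the same inward rectifier subfamily and known mainly from neurons, behaved unlike the others. Its level was 27.8, 1.29 and 17.1 CPM in Des+/+ non-swim, 8.86, 20.9 and 27.6 in Des+/+ swim, 1.49, 0.340 and 0.875 in Des-/- non-swim, and 0.427, 0.219 and 1.23 in Des-/- swim libraries. Among the Des+/+ libraries, replicate 2 without swimming, fell inside the Des-/- range with 11 reads, while the other 5 were at 8.86 CPM or more. The 6 Des-/- libraries held 14, 3 and 10 reads without swimming and 3, 1 and 8 after it. Pooled over the group, the Des-/- level was 5.86% of that in Des+/+ without swimming (95% Clopper-Pearson interval 3.82 to 8.64%) and 3.55% after it (1.82 to 6.26%), intervals that cover counting error only. The log2 change without swimming was -4.07 (SE 0.94, edgeR adjusted p 0.00818), the most negative of the 9. Without replicate 1 of Des+/+ non-swim it was -3.34 (adjusted p 0.0272). It was -1.75 when scaled to the cardiomyocyte markers (adjusted p 0.0973).

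Kcnj11 (ENSMUSG00000096146, chromosome 7, 46093953 to 46100764, minus strand) encodes the pore of the ATP-sensitive channel of cardiac and beta cells. It was at 62.0, 194.5 and 117.7 CPM in Des+/+ non-swim, 89.8, 37.5 and 44.3 in Des+/+ swim, 24.9, 51.6 and 11.5 in Des-/- non-swim, and 48.5, 41.1 and 21.2 in Des-/- swim libraries. The groups without swimming did not overlap, but the Des+/+ libraries alone spanned 62.0 to 194.5. The change was -2.09 (SE 0.57, edgeR adjusted p 0.0172). This call was lost with some single libraries left out: without replicate 2 of Des+/+ non-swim the change was -1.62 (edgeR adjusted p 0.0747), and without replicate 1 of Des-/- non-swim -1.99 (adjusted p 0.0528). Calls over all genes also fell in these fits, from 4210 to 2612 and 3706. Without replicate 2 of Des-/- non-swim, the highest Des-/- library of Kcnj11, the change was -2.79 (edgeR adjusted p 0.00592). With a covariate for Y-linked genes it was -2.73 (adjusted p 0.00371). That covariate was chosen after seeing the data, and in the Des-/- groups it cannot be told apart from the cell mix of replicate 3. Scaled to the cardiomyocyte markers the change of Kcnj11 was 0.04.

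**Figure D1:**
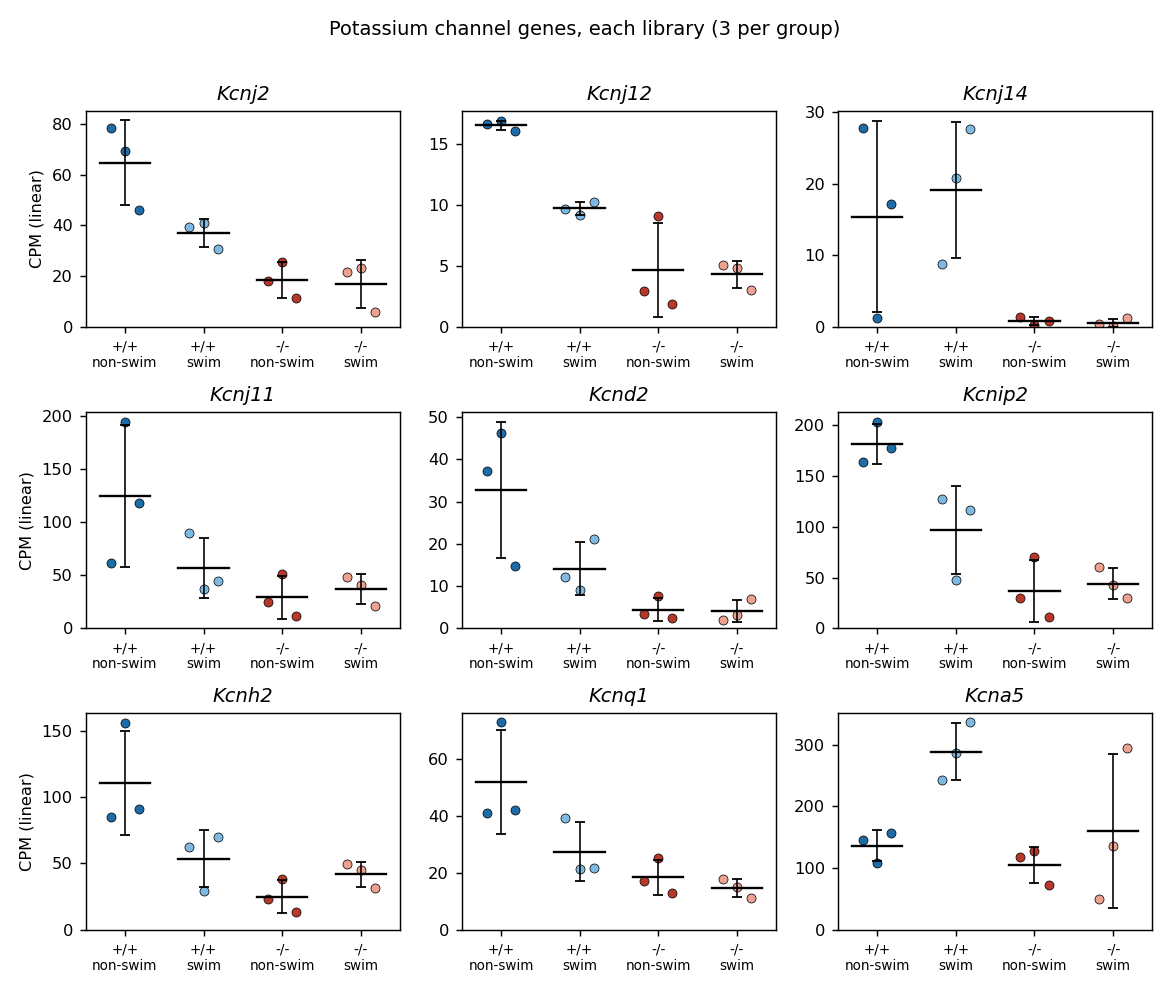
Level of each gene in CPM (linear axis from 0) in every library, by genotype (+/+ or -/-) and swimming. Points are the 3 libraries of a group, the horizontal line is their mean and the bar 1 SD. Without swimming the Des-/- points lie below all Des+/+ points for 7 genes, and after swimming for 5, with Kcnj11, Kcnip2 and Kcnh2 among those that overlap. Kcna5 was highest in the Des+/+ swim libraries, at 243 to 336 CPM, and spread from 49.3 to 295 in the Des-/- swim libraries.

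Next are the 2 genes of the fast transient outward current. Kcnd2 (ENSMUSG00000060882, chromosome 6, 21215503 to 21729805, plus strand) encodes its main ventricular pore subunit in the mouse. It was at 37.2, 46.2 and 14.9 CPM in Des+/+ non-swim, 12.3, 9.09 and 21.2 in Des+/+ swim, 3.51, 7.59 and 2.36 in Des-/- non-swim, and 1.99, 3.28 and 6.93 in Des-/- swim libraries. Every Des-/- library was below every Des+/+ library. Its change without swimming was -2.88 (SE 0.58, edgeR adjusted p 0.00413), a mean at 13.7% of that in Des+/+, and -0.72 when scaled to the cardiomyocyte markers (adjusted p 0.267). Without replicate 2 of Des-/- non-swim the change under the usual scaling was -3.48 (edgeR adjusted p 0.00269). Without replicate 2 of Des+/+ non-swim it was -2.55 (adjusted p 0.0192), and with a covariate for Y-linked genes -2.48 (adjusted p 0.0120).

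Kcnip2 (ENSMUSG00000025221, chromosome 19, 45791839 to 45816061, minus strand) encodes the calcium-binding accessory subunit without which this current is not formed in mouse ventricle. Levels were 163.6, 203 and 177.7 CPM in Des+/+ non-swim, 127.1, 47.7 and 116.5 in Des+/+ swim, 30.0, 70.3 and 10.9 in Des-/- non-swim, and 60.0, 42.4 and 29.7 in Des-/- swim libraries. Without swimming the groups were far apart, whereas replicate 2 of Des+/+ swim, at 47.7, lay within the Des-/- swim range. The change without swimming was -2.30 (SE 0.56, edgeR adjusted p 0.0104), or -0.36 when scaled to the cardiomyocyte markers (adjusted p 0.433). Without replicate 2 of Des-/- non-swim, at 70.3, the change under the usual scaling was -3.16 (edgeR adjusted p 0.00158). Without replicate 3 of that group, at 10.9, it was -1.86 (adjusted p 0.0143). With the covariate for Y-linked genes it was -3.03 (adjusted p 0.00118), with the same limit as for Kcnj11.

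Both delayed rectifier pores were lower too. Kcnh2 (ENSMUSG00000038319, chromosome 5, 24319589 to 24351604, minus strand), the pore of the rapid delayed rectifier, was at 84.7, 155.9 and 91.1 CPM in Des+/+ non-swim and 23.4, 38.5 and 13.1 in Des-/- non-swim libraries. The swim libraries held 62.1, 29.1 and 69.6 CPM in Des+/+ and 49.3, 44.6 and 31.4 in Des-/-. The gap without swimming was clear (log2 change -2.15, SE 0.42, edgeR adjusted p 0.00352). After it the libraries overlapped, and the change was -0.36 (95% interval -1.25 to 0.54). The 2 changes were not called different (interaction, edgeR adjusted p 0.206). For the cardiomyocyte markers the median change was -2.05 without swimming and -0.64 after it. Scaled to the cardiomyocyte markers the change without swimming was 0.07.

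Kcnq1 (ENSMUSG00000009545, chromosome 7, 143106362 to 143427042, plus strand), the pore of the slow delayed rectifier, was at 40.9, 73.0 and 42.0 CPM in Des+/+ non-swim, 39.3, 21.3 and 21.6 in Des+/+ swim, 17.1, 25.1 and 12.9 in Des-/- non-swim, and 17.8, 15.1 and 11.2 in Des-/- swim libraries. The genotypes did not overlap in either condition. Its change without swimming, -1.50 (SE 0.33, edgeR adjusted p 0.00652), was the least negative of the 8, and scaled to the cardiomyocyte markers it was 0.84 (adjusted p 0.0788). Of its 4093 merged exon bases, 121 lie opposite the antisense RNA Kcnq1ot1, and no gene of the set shares exon bases with another gene on its own strand.

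Kcna5 (ENSMUSG00000045534, chromosome 6, 126532551 to 126535412, minus strand, 1 exon), the pore of the ultrarapid delayed rectifier, departed from the rest. It was at 144.6, 108.0 and 156.6 CPM in Des+/+ non-swim and 117.2, 127.2 and 72.2 in Des-/- non-swim libraries, which overlap. The change without swimming was -0.37 (SE 0.47, 95% interval -1.40 to 0.66, edgeR adjusted p 0.579). Scaled to the cardiomyocyte markers it was called higher, at 1.90 (adjusted p 0.00791), as were 91.7% of all genes, whose median was 2.51. Relative to the mean log2 level of those markers, Kcna5 lay at -5.58 to -4.50 in Des+/+ non-swim and at -3.68 to -2.49 in Des-/- non-swim libraries.

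**Figure D2:**
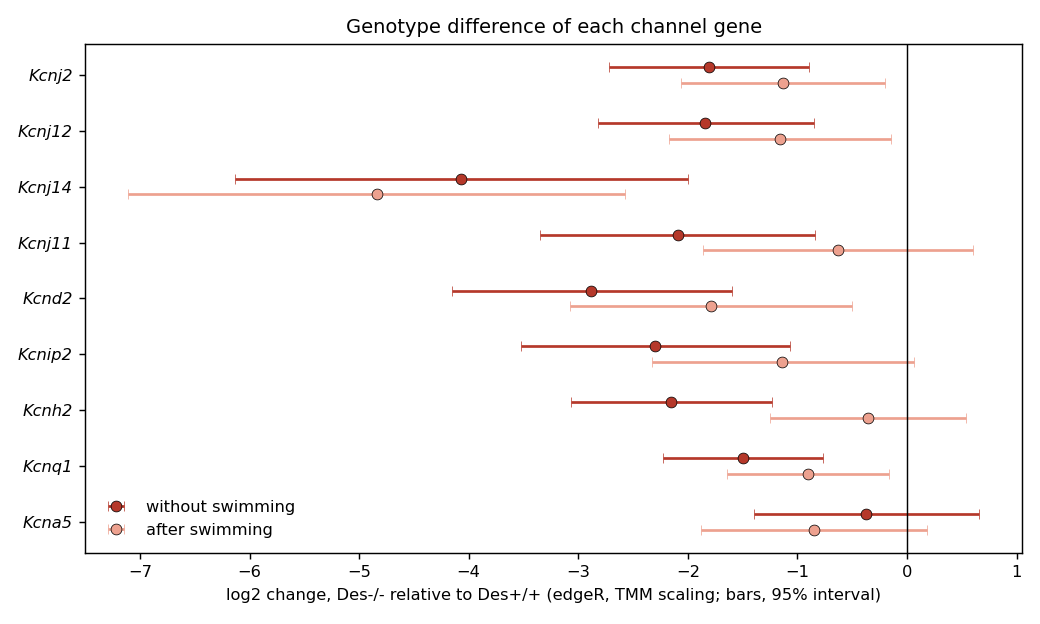
Log2 change of each gene in Des-/- relative to Des+/+ libraries without swimming (dark) and after swimming (light), with 95% intervals from the edgeR fit. Without swimming 8 of 9 intervals lie below 0, and Kcna5 spans -1.40 to 0.66. After swimming all 9 estimates are negative and 5 intervals lie below 0.

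The same comparison after swimming asked whether the genotypes differ under stress. Only Kcnj14 was called, at -4.84 (SE 1.04, edgeR adjusted p 0.0194), with its 3 Des-/- libraries at 0.219 to 1.23 CPM and its 3 Des+/+ libraries at 8.86 to 27.6. Of all genes tested, 5.57% were called lower and 5.01% higher (733 and 659 genes, or 456 and 948 with upper-quartile scaling). All 9 estimates were negative (median -1.13, beside 0.02 over all genes), and 5 had an unadjusted p under 0.05 in the edgeR fit, as did 30.5% of all genes. Every Des-/- library was below every Des+/+ library for Kcnj2, Kcnj12, Kcnj14, Kcnd2 and Kcnq1, 5 of 9, against 18.6% of all genes. By the study's own filter, which uses unadjusted p-values with a minimum change, those same 5 passed, beside 8.21% of all genes lower and 9.37% higher. When scaled to the cardiomyocyte markers, 0 were called and Kcnj11, Kcnh2 and Kcna5 had changes above 0 (0.15, 0.44 and 0.06). Under that scaling the median of all genes was 0.78, and 0.00760% of all genes were called lower and 0.0228% higher.

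The call of Kcnj14 was lost without replicate 3 of Des+/+ swim (adjusted p 0.0685), replicate 1 of Des-/- swim (0.0631) or replicate 2 of Des-/- swim (0.0574), with changes of -4.49, -4.58 and -4.52, and without replicate 3 of Des-/- swim the change was -5.75 (adjusted p 0.0419). Kcnd2 had a log2 change of -1.79 (SE 0.59, edgeR adjusted p 0.0716) and was called by DESeq2 (adjusted p 0.0158). For Kcnj2 the change was -1.13 (SE 0.42, adjusted p 0.101), for Kcnj12 -1.16 (SE 0.46, adjusted p 0.118) and for Kcnq1 -0.90 (SE 0.34, adjusted p 0.103), values that did not pass the edgeR threshold. Kcnj12 passed it without replicate 2 or 3 of Des-/- non-swim (edgeR adjusted p 0.0218 and 0.0452), and Kcnd2 without replicate 3 of Des-/- non-swim (0.0462). Those libraries are not among the 6 compared here, and the estimates stayed at -1.16 and -1.79. With other single libraries left out, adjusted p rose to as much as 0.266 for Kcnj12, 0.216 for Kcnd2, 0.321 for Kcnq1 and 0.194 for Kcnj2. Kcnip2, at -1.14 (95% interval -2.33 to 0.06), Kcnj11, at -0.63 (-1.86 to 0.60), and Kcnh2, at -0.36 (-1.25 to 0.54), also missed the threshold. A covariate for Y-linked genes was also fitted. Their summed level was 144 to 292 CPM in the Des+/+ swim libraries and under 1 CPM in 2 of the 3 Des-/- swim libraries. With this covariate Kcnj2 (-1.83, edgeR adjusted p 0.0167), Kcnj12 (-1.76, adjusted p 0.0254) and Kcnip2 (-1.91, adjusted p 0.0296) were called as well. In both Des-/- groups only replicate 3 had a high Y-linked level, and it also had the highest fibroblast and macrophage sums. The covariate thus cannot tell sex from cell mix there. Kcna5 was at -0.85 (95% interval -1.88 to 0.18, edgeR adjusted p 0.244), and without replicate 3 of Des-/- swim, its highest Des-/- library, at -1.65 (adjusted p 0.0429).

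Swimming itself was compared within each genotype. In Des+/+ libraries 0 of the 9 genes were called by edgeR, which called 0.0912% of all genes. DESeq2 also called 0 of the 9, beside 790 of the 11072 genes for which it gave an adjusted p. In edgeR 4 of the 9 had an unadjusted p under 0.05, as did 20.5% of all genes. By the study's own filter those 4 passed, Kcnd2, Kcnq1 and Kcnh2 lower and Kcna5 higher, beside 6.05% of all genes lower and 4.27% higher. The edgeR estimate was negative for 7 of the 9, from -0.76 for Kcnj12 to -1.21 for Kcnd2, and the 3 libraries after swimming all lay below the 3 without for Kcnj2, Kcnj12, Kcnip2, Kcnq1 and Kcnh2, 5 of 9, against 18.7% of all genes. All 14 cardiomyocyte markers had negative estimates too (median -0.83, 0 called by edgeR, 1 at an unadjusted p under 0.05). Scaled to these markers, Kcnj2 and Kcnj12 were at 0.01 and 0.03, and the other 5 lay between -0.40 for Kcnd2 and -0.11 for Kcnq1, none of them called. Kcnj14 was at 0.31 (SE 0.78). Kcna5 stood on the other side, with 243, 286 and 336 CPM after swimming against 108.0 to 156.6 without, a separation that 12.5% of all genes showed in this direction, and a change of 1.08 (SE 0.47, edgeR unadjusted p 0.0427, adjusted p 0.231). It was called in a fit of only these 6 libraries (1.15, adjusted p 0.0327).

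In Des-/- libraries swimming gave 0 called genes of the 9 with edgeR and 0 at an unadjusted p under 0.05. Of all genes, edgeR called 0.0228%, and 16.7% had such an unadjusted p. DESeq2 also called 0 of the 9, beside 340 of the 12463 genes for which it gave an adjusted p. Estimates ran from -0.46 for Kcnj14 to 0.75 for Kcnh2 (95% interval -0.16 to 1.65). Kcna5 was at 49.3, 135.2 and 295 CPM in the Des-/- swim libraries, a range wider than that between any of its group means. The 4 Y-linked genes measured (Ddx3y, Kdm5d, Uty and Eif2s3y) summed to 0.995, 0.437 and 272 CPM in the same 3 libraries, to 0.106, 0 and 179.5 in Des-/- non-swim, to 72.7, 244.7 and 4.06 in Des+/+ non-swim and to 143.6, 291.6 and 291.4 in Des+/+ swim libraries, so the sex of the pooled mice differed between libraries. With a covariate for these genes, the swimming change of Kcna5 was 0.44 in Des-/- libraries (edgeR adjusted p 0.641) and 0.94 in Des+/+ libraries (adjusted p 0.273).

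The interaction term of the model asked whether the response to swimming of these genes depended on genotype. By edgeR 0 of the 9 were called, and of all genes 0%. DESeq2 called 0 of the 6 for which it gave an adjusted p, beside 314 of 7939 genes. In edgeR 1 gene of the 9 had an unadjusted p under 0.05, as did 16.3% of all genes. That gene was Kcnh2, at 1.79 (SE 0.58, 95% interval 0.53 to 3.06, edgeR unadjusted p 0.00963, adjusted p 0.206). Its swimming change was -1.05 in Des+/+ and 0.75 in Des-/- libraries. The 14 cardiomyocyte markers all had positive interaction estimates as well (median 1.31, 0 called by edgeR, 5 at an unadjusted p under 0.05). For the other genes the interval of the interaction included 0, and for Kcnj11 it reached from -0.27 to 3.19.

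**Figure D3:**
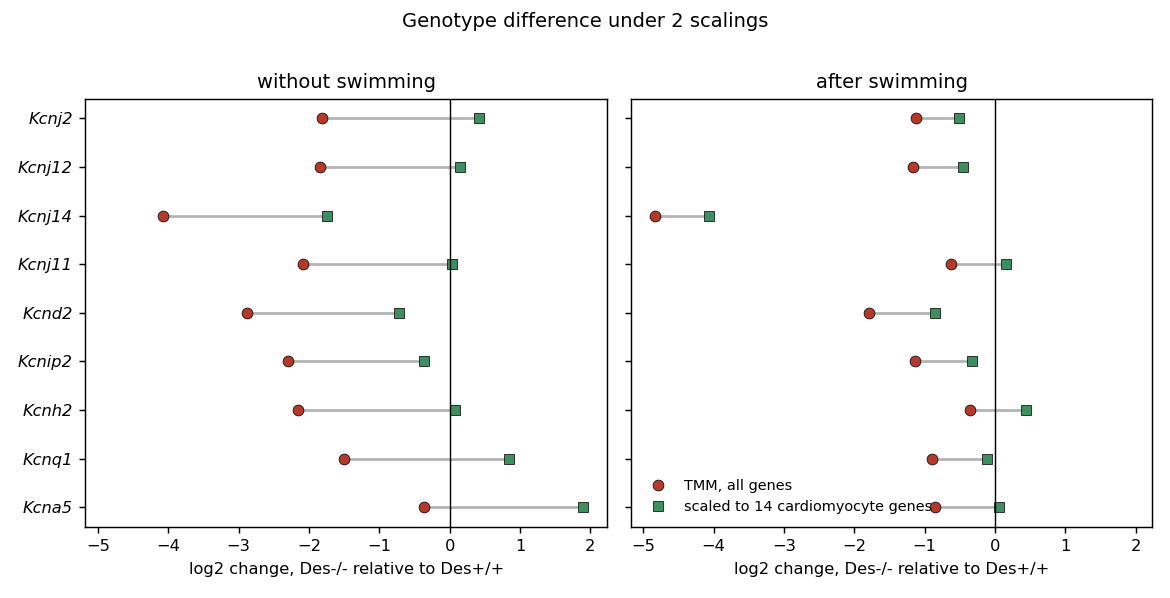
Log2 change in Des-/- relative to Des+/+ libraries under the usual scaling to all genes (TMM, circles) and under scaling to the 14 cardiomyocyte markers (squares), without swimming (left) and after it (right). Without swimming each gene moved up by a log2 of 1.94 to 2.34, a shift the scaling gave to genes in general (median of all genes 0.04 and 2.51), and Kcnj14, Kcnd2 and Kcnip2 lie below 0 under both scalings.

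How closely each gene followed the cardiomyocyte markers was then described over the 12 libraries, which share scaling, depth and cell mix. Pearson's r with the mean log2 level of the markers was 0.98 for Kcnip2, 0.96 for Kcnh2, 0.95 for Kcnj11 and for Kcnj12, 0.87 for Kcnq1, 0.84 for Kcnj2 and 0.82 for Kcnd2. It was 0.47 for Kcnj14 and 0.27 for Kcna5. With group means removed, r stayed at 0.94, 0.91, 0.92, 0.89 and 0.83 for the first 5 of these genes, was 0.61 for Kcnj2 and 0.42 for Kcnd2, and was -0.55 for Kcnj14 and -0.03 for Kcna5. Over all libraries the genes thus ranged from Kcnip2 to Kcna5, and with group means removed from Kcnip2 to Kcnj14.

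The genes most like each member, among 11179 with a mean of at least 5 CPM, are given here as a description. Kcnj12 was most like Atp2a2 (r 0.992), the calcium pump of the sarcoplasmic reticulum and one of the 14 markers, followed by Alpk2 and Jph2, which encodes a protein of the junctions between that reticulum and the surface membrane. Kcnip2 was most like Mlf1, Hcn4, a pacemaker channel gene, and Kcnk3, a background potassium channel gene (r 0.988, 0.988 and 0.986). Kcnh2 was most like Itgb1bp2, Slc38a3 and Irx4, a ventricular transcription factor (0.982, 0.979 and 0.978), and Irx4 also led the list with group means removed (0.979). Kcnj11 was nearest to Adprhl1, Chmp4c and Idh2, a mitochondrial dehydrogenase gene (0.981, 0.980 and 0.978), and Kcnq1 to Dcaf6, Satb1 and Slc41a1 (0.985, 0.981 and 0.974). For Kcnj2 the nearest were Narf, Rmnd5a and Hcfc2 (0.985, 0.974 and 0.968), for Kcnd2 Pja2, Spryd7 and Mapk8 (0.971, 0.963 and 0.959), and for Kcnj14 Arl5a, Zfp758 and Ceacam2 (0.964, 0.961 and 0.954). Kcna5 was most like Fzd4, a Wnt receptor gene (0.978), then Zhx3 and Sgms1 (0.958 and 0.937). With so few libraries, high r values are reached by some gene for every member.

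Levels per kilobase of merged exon gave the order of the genes within each group. In Des+/+ non-swim libraries Kcnip2 was first at 52.2 ± 5.78 CPM per kb (SD, n = 3), then Kcna5 at 47.7 ± 8.86, Kcnj11 at 33.9 ± 18.1 and Kcnh2 at 22.8 ± 8.13. Below them came Kcnq1 at 12.7 ± 4.46, Kcnj2 at 11.9 ± 3.07, Kcnd2 at 6.36 ± 3.13, Kcnj12 at 6.0 ± 0.145 and Kcnj14 at 5.67 ± 4.91. Each of these overlapped its neighbour in the order, so neighbours did not differ beyond their spread. In the 3 other groups Kcna5 was first, at 100.7 ± 16.2 in Des+/+ swim, 36.9 ± 10.2 in Des-/- non-swim and 55.8 ± 43.5 in Des-/- swim libraries (SD, n = 3 each). Kcnip2 was second in all 3, at 27.9 ± 12.4, 10.7 ± 8.72 and 12.7 ± 4.37, and its libraries did not overlap those of Kcna5 in the first 2 of these groups. Kcnj11 and Kcnh2 kept the third and the fourth place in all 4 groups. Kcnj14 was last in both Des-/- groups, at 0.332 ± 0.212 and 0.230 ± 0.197, with libraries that overlapped those of Kcnd2. In Des+/+ swim libraries, at 7.03 ± 3.5, its mean ranked above those of Kcnj2, Kcnq1, Kcnj12 and Kcnd2, but its libraries overlapped those of each.

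**Figure D4:**
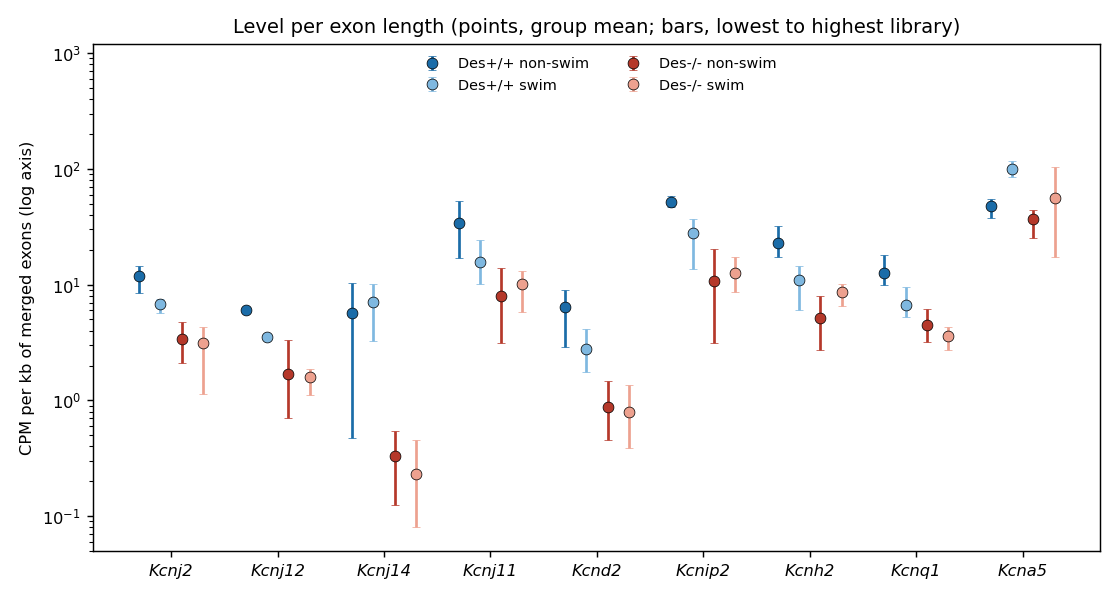
Level of each gene per kilobase of merged exons (CPM per kb, log axis) in the 4 groups. Points are group means of 3 libraries and bars run from the lowest to the highest library. Kcna5 leads in 3 of the 4 groups. By ratio, the means of Kcnj14 differ most between genotypes, although its bars overlap without swimming.

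Ratios of 2 subunits within a library do not depend on how libraries are scaled. For Kcnip2 to Kcnd2, accessory and pore subunit of the transient outward channel, the log2 ratio of CPM averaged 2.66 over Des+/+ and 3.12 over Des-/- libraries, a difference of 0.46 (two-sided exact permutation within swimming condition over 12 libraries, p 0.41, adjusted p 0.82). For Kcnj2 to Kcnj12 the means were 1.91 and 1.95, a difference of 0.04 (exact permutation p 0.9, adjusted p 0.9). Kcnj11 to Abcc9, its cardiac sulfonylurea receptor partner, gave -2.90 and -3.10, a difference of -0.20 (exact permutation p 0.675, adjusted p 0.9). Kcnd2 to Kcnd3, both transient outward pores, gave 0.83 and 0.08, a difference of -0.75 (exact permutation p 0.125, adjusted p 0.5), with -0.39 without and -1.10 after swimming. All 4 pairs were tested, the smallest p possible was 0.005, and in every pair the genotypes' libraries overlapped in both conditions. A shift of these ratios was not detectable against a spread within groups of up to 1.36 (SD, Kcnip2 to Kcnd2 in Des-/- swim libraries).

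**Figure D5:**
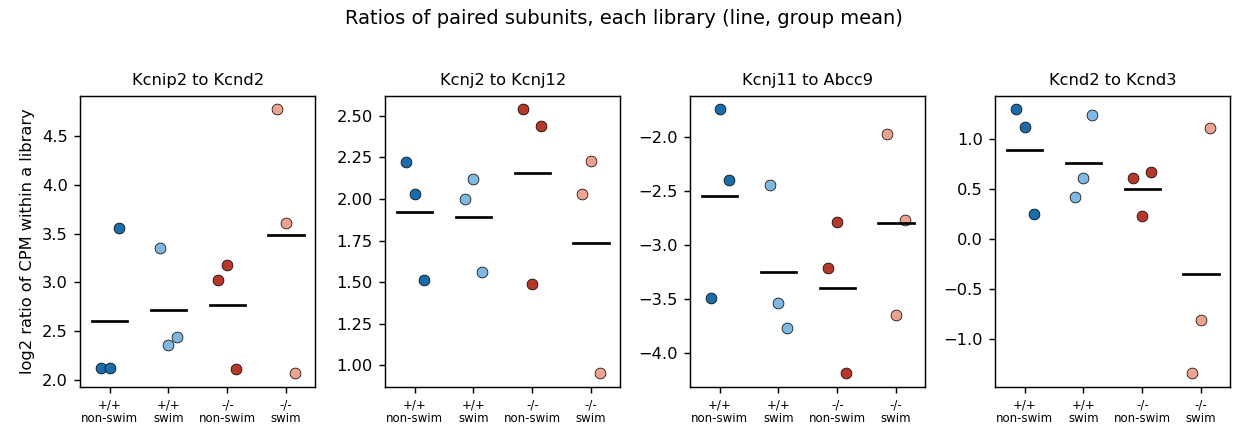
Log2 ratio of CPM of 2 subunits within each library for 4 pairs, by genotype and swimming. Points are libraries and lines are group means. The Des+/+ and Des-/- points overlap in every panel, and the lowest Kcnd2 to Kcnd3 ratios are in Des-/- swim libraries, at -1.35 in the lowest.

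The partners of these genes were measured as well. Abcc9, at 657 ± 38.5 CPM without swimming in Des+/+ and at 268 ± 79.4 in Des-/- libraries (SD, n = 3 each), fell (log2 change -1.29, SE 0.40, edgeR adjusted p 0.0287), as did Abcc8, the other sulfonylurea receptor gene (-2.20, SE 0.57, adjusted p 0.0138). Kcnj8, the pore gene of the vascular ATP-sensitive channel, was at -0.33 (SE 0.31, adjusted p 0.440), with 135.6 ± 15.8 and 108 ± 18.9 CPM. Kcnd3 fell (-2.27, SE 0.49, adjusted p 0.00591). Kcnj3 and Kcnj5, which encode the acetylcholine-activated channel, changed by -2.97 (SE 0.54, adjusted p 0.00235) and -2.68 (SE 0.52, adjusted p 0.00348). Kcne1, the accessory subunit of the Kcnq1 channel, was at -1.73 (SE 0.66, adjusted p 0.0655), and Kcna4, a transient outward pore gene, at -0.98 (SE 0.84, adjusted p 0.401) with 0.825 to 3.07 CPM in Des+/+ non-swim libraries. Abcc9 and Kcnj8 are also expressed outside cardiomyocytes. After swimming Kcnj5 alone of these 8 partners was called (-1.95, SE 0.53, edgeR adjusted p 0.0402).

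Other potassium channel genes were counted by list. Of 32 other pore subunit genes 30 were tested, and 3 were called higher and 11 lower without swimming (median -0.58), against 1 higher and 3 lower after it (median -0.14). Of all genes, 18.0% were lower and 14.0% higher without swimming, and 5.57% and 5.01% after it. Of 20 accessory subunit genes 12 were tested, with 2 higher and 3 lower without swimming (median -0.18) and 0 called by edgeR after it (median -0.26), where 2 had an unadjusted p under 0.05. By the smallest p-values without swimming, beside the partners above, Kcnv2, a silent subunit that joins other pores, changed by -3.94 (SE 0.41, edgeR adjusted p 6.65e-04) and Kcnk3 by -2.18 (SE 0.41, adjusted p 0.00289). Kcnt2, a sodium-activated pore gene, was called higher, by 1.38 (SE 0.28, adjusted p 0.00455). After swimming the smallest p-values were those of Kcnt2 (1.41, SE 0.29, adjusted p 0.0175), Kcnv2 (-1.49, SE 0.38, adjusted p 0.0321), Kcnk6 (-0.84, SE 0.22, adjusted p 0.0367), Kcnj5 and Kcnj3, the last at -1.64 (adjusted p 0.0663). Kcnv2 thus passed in the same direction in both conditions, as did Kcnt2.

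The list of 6 transcription factors with known roles in the ventricular gradients of these channels came last. Irx4 fell without swimming by 2.04 on the log2 scale (SE 0.49, edgeR adjusted p 0.00960), and Klf15, which is known to drive Kcnip2, by 1.92 (SE 0.43, adjusted p 0.00697). Irx5, known to repress Kcnd2 across the ventricular wall, was at -1.44 (SE 0.59, adjusted p 0.0837) and Irx3 at -0.83 (SE 0.30, adjusted p 0.0521). Hey2 (-0.34) and Etv1 (0.16) had adjusted p-values of 0.471 and 0.647. Those 2 of 6 compare with the 18.0% of all genes called lower. After swimming Klf15 was called (-1.51, SE 0.43, edgeR adjusted p 0.0455), and the other 5 lay between -0.48 for Irx4 and 0.09 for Irx5. The median of the 6 was -1.13 without swimming and -0.31 after it, beside -2.05 and -0.64 for the cardiomyocyte markers. No values scaled to those markers are given for these factors, the partners or the other channel genes. Whether Klf15 bears on the level of Kcnip2 here was not tested.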

How the data were processed

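Counts of reads per gene for 12 libraries were used as deposited. The authors made them by aligning single-end reads to GRCm38 (mm10) with HISAT2 2.2.1 and counting with HTSeq-count in reverse-strand mode, and did not normalise them. SAMtools 1.13 and DESeq2 1.40.2 are also named in the submitters' processing notes. The labels name a kit that does not mark strand and the methods a directional one. No gene of the set shares exon bases with another gene on its own strand, and Kcnq1 shares some with an antisense RNA.

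Groups came from sample titles. Nothing ties a library to named animals, so p-values measure the spread between pools. In R 4.3.3, edgeR 4.0.16 kept 13158 of 21493 genes (filterByExpr), scaled libraries by TMM and fitted 4 group means to all 12 libraries (8 residual degrees of freedom). Benjamini-Hochberg adjustment of the quasi-likelihood p-values ran over every tested gene, and calls needed an adjusted value under 0.05. CPM levels use the scaled totals, log2 levels a prior count of 2, and lengths the GENCODE M21 exons, to which 21488 genes matched. Sequences are from RefSeq. Depth was 4320819 to 12072443 reads in genes. There 3 counts, the limit that a count of 0 allows, is 0.248 to 0.694 per 1000000 unscaled reads. That limit covers counting error only and is not on the scale of the CPM levels.

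The members, lists and tests were chosen with earlier results of these data known. Named are the 9 members, 8 partner genes (1 more is not reported here), 6 transcription factors, the 5 other channel genes with the smallest p in each genotype comparison, and the 3 genes most like each member. Marker lists for cardiomyocytes, fibroblasts, macrophages and the response to isolation are described in the text. Of the remaining lists, endothelial genes (8 tested) had 0 called without and 1 higher after swimming, pericyte and smooth muscle genes (7) 0 and 0, ventricular genes (3) 2 lower and 0, atrial genes (5) 1 lower and 1 higher, conduction genes (5) 2 lower and 0, lymphocyte genes (2) 1 higher and 0, and neuron and glia genes (5) 1 higher and 0.

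Replicate numbers are shared between groups. Deviations from group means of same-numbered libraries correlated at 0.36, 0.32 and 0.60 for swimming in Des-/- libraries. Replicate 3 of both Des-/- groups had the highest fibroblast and macrophage sums of its group. A pairing by number and a similar cell mix cannot be told apart here. Every pair of libraries differed beyond sampling noise. Scripts were tested on simulated counts, for the genotype comparison without swimming only. Of 100 genes given a log2 change of size 1, edgeR called 40 and DESeq2 56. At size 2 they called 87 and 96 of 100. Among 12958 genes left unchanged they called 6 and 53. An uncalled change of a size near 1 may thus be a missed one. Alternatives were RLE, upper-quartile and cardiomyocyte-marker scaling, DESeq2 1.42.0, other filters, a replicate block, the 6 libraries compared alone, each library left out, the study's own filter and other prior counts for the ratios. A fit without replicate 3 of both Des-/- groups and a covariate for Y-linked genes were chosen after seeing the data. In the Des-/- groups that covariate cannot be told apart from the cell mix of replicate 3.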

Additional observations from a re-analysis of the deposited data

Results flagged for a closer look

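Reads outside genes, which no comparison above uses, were above the level of the control libraries after swimming. Of reads aligned to a single place, 34 to 39.3% lay in no gene in the Des+/+ non-swim libraries, 45.9 to 50.4% in Des+/+ swim and 57.2 to 64.5% in Des-/- swim libraries. In the Des-/- non-swim group the share was 52.3, 49 and 34.2%. Its part in the levels of the channel genes was not tested. No group had enough libraries to look for single outlying values, and no gene of the set passed the test of a difference in swimming response between genotypes.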

How the results depend on the processing

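Of the alternatives, scaling to the cardiomyocyte list changed most: 1 gene of the 9 was then called between genotypes without swimming (Kcna5, higher at 1.90) and 0 after it. Under it the changes without swimming of Kcnj2 (0.42), Kcnj11 (0.04), Kcnj12 (0.15), Kcnq1 (0.84), Kcnh2 (0.07) and Kcna5 reversed, as did Kcnj11 (0.15), Kcnh2 (0.44) and Kcna5 (0.06) after swimming, Kcnj2 (0.01) and Kcnj12 (0.03) for swimming in Des+/+, Kcnj11 (-0.20) and Kcnip2 (-0.16) for swimming in Des-/-, and Kcnj2 (-0.93), Kcnj12 (-0.60), Kcnd2 (-0.14) and Kcnq1 (-0.96) for the interaction. This list fell as a whole without swimming, which by construction raises all other genes. The count of 8 without swimming was 8 in the other fits, and 7 to 8 when single libraries were left out. The count of 1 after swimming was 2 with DESeq2, 2 with only the 6 libraries compared, 3 without replicate 3 of both Des-/- groups, 4 with the Y-linked covariate, 5 with the study's filter, and 0 to 3 when single libraries were left out. With the replicate block it was 2, Kcnj2 being added (-1.26, adjusted p 0.0253), and the block changed no other call, though Kcnj12 for swimming in Des-/- turned to 0.03. For swimming in Des+/+, Kcna5 was the 1 gene of the 9 called with only the 6 libraries compared. It was also the 1 called without replicate 3 of both Des-/- groups (1.15 in each). Over all genes these fits called 282 and 743. Small swimming changes turned with single libraries left out: Kcnj14 in Des+/+ ranged from -0.23 to 1.04, and in Des-/- Kcnj2 from -0.40 to 0.28, Kcnj11 from -0.04 to 1.03, Kcnj12 from -0.46 to 0.82, Kcnj14 from -1.37 to 0.06, Kcnd2 from -0.79 to 0.48, Kcnip2 from -0.17 to 1.11 and Kcna5 from -0.20 to 1.03. Without replicate 3 of both Des-/- groups Kcnj2 (0.04) and Kcna5 (-0.40) turned in Des-/-, and with the Y-linked covariate Kcnj12 (0.05). The ratio difference of Kcnj2 to Kcnj12 was -0.02 with a prior count of 5 and -0.08 to 0.24 with single libraries left out, and that of Kcnj11 to Abcc9 -0.44 to 0.01. The cause of these shifts was not tested. No label pairs same-numbered libraries, and outside swimming in Des-/- their deviations correlated at -0.41 to 0.13. Over all genes, calls after swimming (1392) came to 2292 with DESeq2, 2608 with the Y-linked covariate and 4 with scaling to the cardiomyocyte list. They came to 1080 with only the 6 libraries compared, 1579 without replicate 3 of both Des-/- groups and 1309 with the replicate block. With single libraries left out they came to 74 to 2142, lowest without replicate 3 of Des+/+ swim. Calls for swimming (12 in Des+/+ and 3 in Des-/-) came to 790 and 340 with DESeq2, and the interaction (0) to 314. The Des-/- swim libraries were the shallowest, and Kcnj14 there rests on 12 reads in all.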
